A study of Mus musculus with 4 samples.

Results

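The genes described here are 10 transcripts that respond to TGF-beta signalling, to the coactivators YAP and TAZ, or to both: Ccn1, Ccn2, Ankrd1, Tagln, Acta2, Tgfbi, Pmepa1, Smad7, Skil and Ltbp2. They were chosen by symbol, each matched 1 feature, and together they are 10 of the 22547 features that the 4 libraries share. All groups came from lungs of Gramd2creERT2;mTmG mice, in which an inducible Cre under Gramd2, a gene that marks the alveolar type I (AT1) lineage, switches a reporter over to EGFP from tdTomato. The organoid groups of days 8, 13 and 20 were GFP-positive cells grown in Matrigel beside MLg, a fibroblast line of mouse lung, in a medium with serum and SB 431542, an inhibitor of the TGF-beta type I receptor, and were enriched for EpCAM-positive cells on beads. The day 0 group was GFP-positive cells straight from the sort, with neither culture nor inhibitor. Every culture held the inhibitor, so its part in any difference from day 0 cannot be told apart from that of culture, dissociation, bead enrichment or library. Each group was 1 library of single cells sequenced from the 3′ end of transcripts, so no difference has a replicate check, no test was made, and each interval is a 95% interval for counting error alone.

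TGF-beta ligands are stored in the matrix as latent complexes, and once released they act through a pair of receptor kinases that phosphorylate SMAD2 and SMAD3. Among the targets are matrix and contractile genes, and also Smad7, Pmepa1 and Skil, whose products restrain the pathway. YAP and TAZ carry no DNA-binding domain of their own: when cells are stretched or spread they enter the nucleus and act through TEAD factors, with Ccn1, Ccn2 and Ankrd1 as their usual readouts. AT1 cells are the thin, stretched cells of the gas-exchange surface and are known for YAP/TAZ activity, while smooth muscle cells and myofibroblasts are known for Acta2 and Tagln. Ccn1 and Ccn2 also respond to TGF-beta and to serum, so the groups of targets overlap.

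Cells were grouped without using the 10 genes or any gene of the pathway lists below, and each class carries the name of its marker list. After filters 6827, 7174, 8458 and 8417 cells remained at days 0, 8, 13 and 20, with median depths of 2577, 16705.5, 9213 and 12188 UMIs (unique molecular identifiers, 1 per captured molecule). Day 0 held 468 AT1-like, 566 smooth muscle- and pericyte-like, 131 fibroblast-like and 1378 endothelial-like cells. The label calls the samples alveolar epithelial cells, yet only 1067 cells of day 0 were epithelial, and EGFP stood at 1916 CPM in AT1-like cells against 64.4 CPM in smooth muscle-like and 96.4 CPM in endothelial-like cells. CPM are the UMIs of a gene per 1000000 UMIs summed over a class in 1 library. The cultures held 569, 1584 and 927 epithelial cells, 497, 1208 and 2826 fibroblast-like cells and 6016, 5490 and 4548 macrophage-rich myeloid cells at days 8, 13 and 20. Pairs of libraries shared 25 to 41 barcodes.

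The cultured cells called AT1-like need a caution before any value. They were 39, 70 and 48 cells of days 8, 13 and 20, in a sub-cluster that held none of day 0. Pooled over the cultures they had Ager, the receptor that marks AT1 cells, at 7190 CPM, against 25215 CPM in AT1-like cells of day 0. They had Igfbp2, a gene of mature AT1 cells, at 3.86 CPM, against 2657 CPM at day 0. They also had the AT2 surfactant gene Sftpc at 99620 CPM, against 1270 CPM at day 0. They thus carried AT1 and AT2 genes together, and the name rests on the marker list. A further sub-cluster with the AT1 list on top but little Ager, 18.1, 4.55 and 10.0% of the epithelial cells of days 8, 13 and 20, was kept apart, a limit set after its values were seen.

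A difference counts below as higher or lower when the ratio of CPM is at least 2-fold, the larger side has at least 20 CPM and the exact interval of the ratio excludes 1. Folds and ratios are given as the larger level over the smaller, with both levels or the direction beside them, while a log2 ratio is negative where AT1-like cells of day 0, set against another class, or cultured or later cells, set against earlier ones, had the lower level. Beside the first count in a comparison stands the share of all tested genes that met the same rule in it, against which the counts of pathway lists in that comparison are also to be read.

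**Figure D1:**
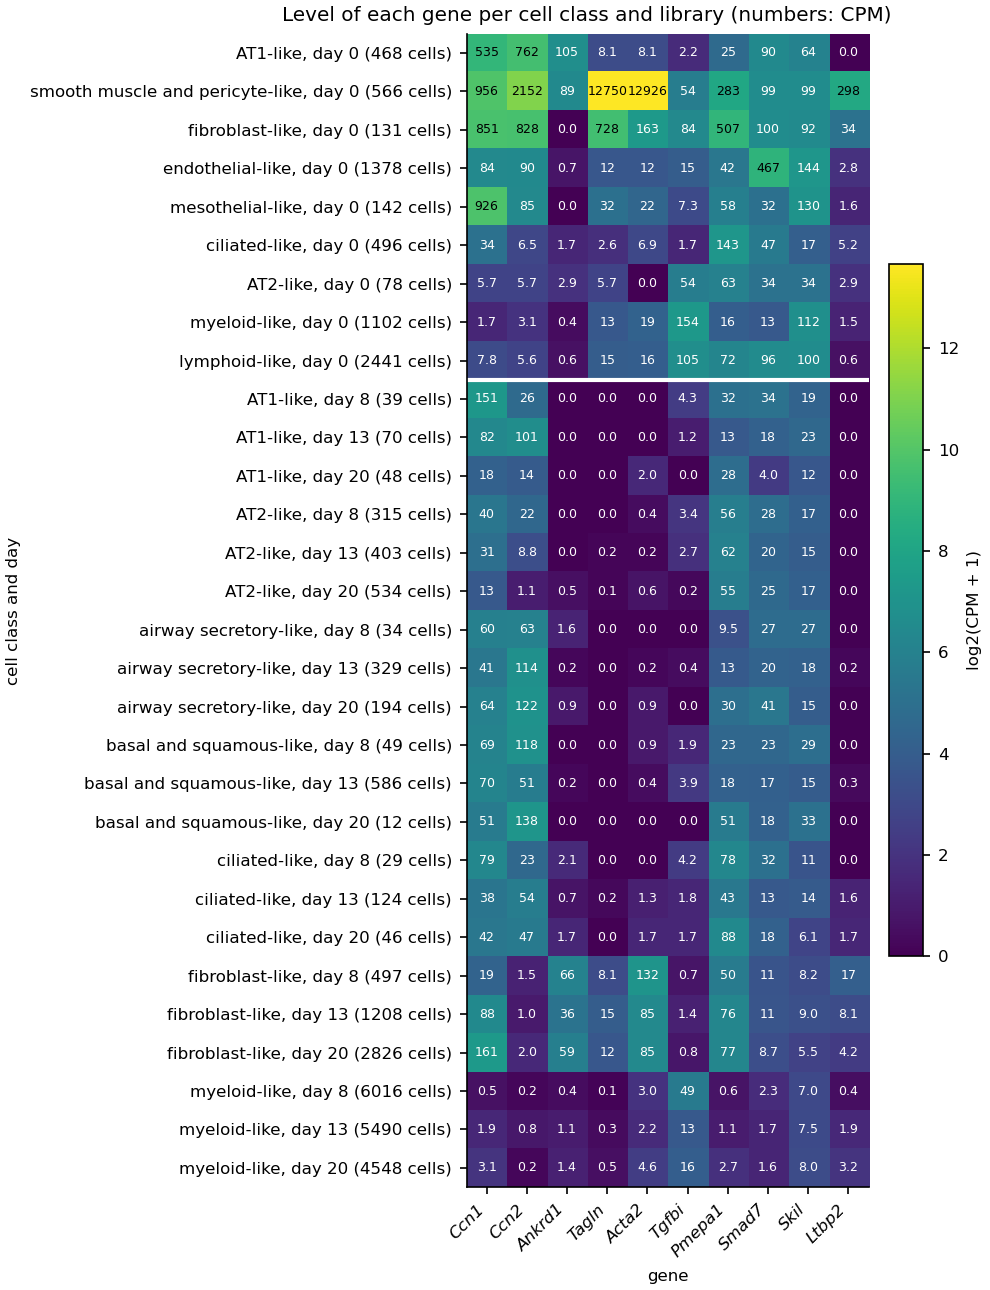
Level of the 10 genes in each cell class and library, as log2 of CPM plus 1 (colour, with CPM written in each cell), with classes in rows and genes in columns. Tagln and Acta2 are brightest in smooth muscle-like cells of day 0 (12750 and 12926 CPM) and dark in every epithelial class, while Ccn1 and Ccn2 are bright in AT1-like, smooth muscle-like and fibroblast-like cells of day 0.

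In the sorted lung cells, AT1-like cells stood out among epithelial cells for the YAP/TAZ readouts and had hardly any Acta2 or Tagln. Some other genes of the contractile list were present in them, with Cnn2 at 421 CPM, Myh9 at 356 CPM and Tpm1 at 321 CPM. Tpm1 was at 334 CPM in AT2-like cells too. Others were hardly seen in AT1-like cells, with Myl9 at 2.96 CPM, Cnn1 at 0.741 CPM and Actg2 at 0 UMIs. Of 17 contractile genes tested, 11 were lower in AT1-like than in smooth muscle-like cells and 0 higher (20.4 and 20.1% of all tested genes). Ccn1, a matricellular protein that binds integrins, was at 535 CPM in AT1-like cells (496 to 575), against 33.6 CPM in ciliated-like and 5.71 CPM in AT2-like cells. Ccn2, its close relative, was at 762 CPM in AT1-like cells (716 to 810), against 6.47 CPM in ciliated-like and 5.71 CPM in AT2-like cells. Ankrd1, an ankyrin-repeat protein of stretched muscle and a TEAD target, was at 105 CPM in AT1-like cells (88.6 to 124), against 1.72 CPM in ciliated-like and 2.86 CPM in AT2-like cells. The intervals of the 3 genes in AT1-like cells lay above those of both other classes. With each cell thinned to 2000 UMIs, Ccn2 was seen in 54.7% of 309 AT1-like cells (49.0 to 60.3), Ccn1 in 49.8% (44.1 to 55.6) and Ankrd1 in 16.2% (12.3 to 20.8). The UMIs of Ankrd1 were uneven, with 66.2% of them in the 10% of AT1-like cells that held the most. Ccn1 was seen in 55.4% of the 168 thinned AT1-like cells with a Ccn2 UMI (47.5 to 63.0) and in 46.8% of the 141 without (38.4 to 55.4), intervals that overlap.

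The sequences before the transcription starts of Ccn1 and Ankrd1 are shown because both genes are TEAD readouts and both were far lower in cultured AT1-like cells. They are from RefSeq on GRCm38.p6, the assembly that mm10 names, and the promoters of 5 of the 10 genes were matched there: Ccn1, Ankrd1, Acta2, Tgfbi and Ltbp2. Capitals mark GGAATG, the core that TEAD factors bind (CATTCC where it lies on the other strand), and CAGACA, a sequence that SMAD3 binds. Both strands of the 250 bases before each start were searched, together with the CArG box of serum response factor in its strict form, CCWWWWWWGG with W for A or T. The Ccn1 stretch is chr3:145649986-145650235 on the minus strand and holds 1 GGAATG match, 103 to 98 bases before the start. The Ankrd1 stretches are chr19:36120037-36120066 and chr19:36119957-36119986 on the minus strand and hold GGAATG matches 210 to 205 and 123 to 118 bases before the start, with CAGACA 137 to 132 bases before it.
Ccn1: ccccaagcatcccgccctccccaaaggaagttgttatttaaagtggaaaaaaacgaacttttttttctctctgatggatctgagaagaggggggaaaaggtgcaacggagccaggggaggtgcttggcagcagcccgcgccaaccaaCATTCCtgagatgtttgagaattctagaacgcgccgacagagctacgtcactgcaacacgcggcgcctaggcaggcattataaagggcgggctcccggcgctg
Ankrd1, first stretch: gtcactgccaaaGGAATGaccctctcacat
Ankrd1, second stretch: cttccCAGACActaagtctGGAATGaaaat
Among 32851 promoters of the same length, 12.6% held GGAATG, 17.1% held CAGACA and 1.47% held the CArG box. Acta2 had 1 match to GGAATG and 1 to CAGACA in its window, and the windows of Tgfbi and Ltbp2 had none of the 3 motifs. These windows overlap in part the spans that the mm10 annotation gives the same genes, and the Acta2 match to GGAATG lies inside such a span. A match describes these letters and is no evidence of binding.

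Set against smooth muscle-like cells of the same library, AT1-like cells also carried Ccn1, Ccn2 and Ankrd1, but hardly any Acta2, Tagln, Ltbp2 or Tgfbi. Of the 10 genes, 6 were lower in AT1-like cells, where 20.4% of all tested genes were lower, and 0 were higher, where 20.1% of all were. Acta2, the smooth muscle actin, was at 8.15 CPM in AT1-like cells against 12926 CPM in smooth muscle-like cells, 1587-fold lower (887 to 3179). Tagln, the actin-binding protein transgelin, was at 8.15 CPM against 12750 CPM, 1565-fold lower (874 to 3136). Both genes reached 0.06% of their smooth muscle level in AT1-like cells, within the range of 0 to 0.13% that the smooth muscle genes Myh11, Des and Mustn1 reached there, so those UMIs are at the background of free RNA. With doublets kept, their log2 ratios were -6.84 for Acta2 and -6.71 for Tagln, against -10.63 and -10.61 here. Ltbp2, a matrix protein of the latent-TGF-beta-binding family, had 0 UMIs in AT1-like cells against 298 CPM in smooth muscle-like cells, at least 134-fold lower at a floor of 3 UMIs.

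Of the genes that feed back on the pathway, only Pmepa1 met the rule between these classes. Pmepa1, a membrane protein that holds SMAD2 and SMAD3 away from the receptor, was at 25.2 CPM in AT1-like cells against 283 CPM in smooth muscle-like cells, 11.2-fold lower (7.91 to 16.5). Smad7, which blocks the type I receptor, was at 89.6 CPM in AT1-like cells against 98.7 CPM in smooth muscle-like cells, a ratio of 1.10. Skil, the SnoN corepressor of SMADs, was at 64.4 CPM in AT1-like cells against 98.7 CPM in smooth muscle-like cells, a ratio of 1.53. Smad7 and Skil did not meet the rule, and neither did Ccn1 (535 against 956 CPM) or Ankrd1 (105 against 88.7 CPM). Ccn2 was 2.82-fold lower in AT1-like cells (2.63 to 3.03), at 762 CPM against 2152 CPM. Tgfbi, a matrix protein named for its induction by TGF-beta, was at 2.22 CPM in AT1-like cells, 3 UMIs in all, against 53.6 CPM in smooth muscle-like cells, a ratio of 24.1 (7.95 to 120).

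Set against fibroblast-like cells of day 0, AT1-like cells were called lower in Tagln, Acta2, Tgfbi, Ltbp2 and Pmepa1, with no call for Ccn1 and Ccn2. Of the 10 genes, 5 were lower in AT1-like cells (19.8% of all tested genes) and 1 was higher (20.5% of all). Ankrd1 had 0 UMIs in the 131 fibroblast-like cells, against 105 CPM in AT1-like cells, which is at least 13.3-fold higher in AT1-like cells. Tagln was at 8.15 CPM in AT1-like cells against 728 CPM in fibroblast-like cells, 89.3-fold lower. Pmepa1 was at 25.2 CPM in AT1-like cells against 507 CPM in fibroblast-like cells, 20.1-fold lower. The other lower genes were Tgfbi, with a ratio of 37.8, Acta2, with 20.0, and Ltbp2, at least 15.4-fold lower. With doublets kept, Acta2 had a log2 ratio of -0.85 and lost its call, Ltbp2 lost its call too, and the log2 ratio of Tagln was -2.14. Acta2 in day 0 fibroblast-like cells was at 1.26% of its smooth muscle level and Tagln at 5.71%. Myh11, Des and Mustn1 reached 0.23 to 3.63% there, a range that holds Acta2 but not Tagln. In AT1-like, ciliated-like, endothelial-like, myeloid and lymphoid cells of the same library Acta2 reached 0.05 to 0.14%. Its share in fibroblast-like cells lay above those of the other classes but within the range of the smooth muscle genes in fibroblast-like cells, and its source there was not tested. Ccn1 (535 against 851 CPM) and Ccn2 (762 against 828 CPM) did not meet the rule, and neither did Smad7 (89.6 against 99.8 CPM) or Skil (64.4 against 92.0 CPM). The fibroblast class of day 0 held 5 cells that shared a cluster with cultured fibroblasts and carried 16.3% of its UMIs. Without them Tagln was at 518 CPM, Pmepa1 at 496 CPM, Ccn1 at 1016 CPM and Ltbp2 at 18.8 CPM in that class, where Ltbp2 was under the limit of 20 CPM and lost its call.

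Endothelial-like cells showed the reverse balance between the YAP/TAZ readouts and the SMAD feedback genes. Of the 6 genes with enough counts, 3 were higher in AT1-like cells (16.3% of all tested genes) and 2 were lower (22.0% of all). Ccn2 was at 762 CPM in AT1-like cells against 89.7 CPM in endothelial-like cells, 8.49-fold higher (7.40 to 9.78). Ccn1 was at 535 CPM against 84.5 CPM, 6.33-fold higher (5.46 to 7.35). Ankrd1 was at 105 CPM in AT1-like cells against 0.698 CPM in endothelial-like cells, which is 2 UMIs there and an observed ratio of 151 (40.9 to 1256). Smad7 was at 89.6 CPM in AT1-like cells against 467 CPM in endothelial-like cells, 5.21-fold lower (4.33 to 6.33). Skil was at 64.4 CPM against 144 CPM, 2.24-fold lower. Pmepa1 did not meet the rule, at 25.2 CPM in AT1-like cells against 42.2 CPM in endothelial-like cells.

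The endothelial class was itself mixed. Smad7 was at 581, 476 and 284 CPM in 3 blood-vessel clusters, led by Gpihbp1 and Tmem100, by Vwf, and by Car4 and Kdr, and at 10.9 CPM in the lymphatic cluster led by Ccl21a and Mmrn1. The Vwf cluster had the most Ccn2, at 411 CPM (352 to 476), against 7.15 CPM in the Car4 cluster (1.48 to 20.9). Ccn1 was at 266 CPM in the Vwf cluster, 156 CPM in the lymphatic cluster, 47.7 CPM in the Gpihbp1 cluster and 4.77 CPM in the Car4 cluster. Vessel types thus differed more in Ccn1 and Ccn2 than AT1-like cells did from smooth muscle-like cells. Tgfbi, at 15.4 CPM in the whole class, was at 127 CPM in the lymphatic cluster.

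Other classes of day 0 each had their own pattern of the 10 genes. Mesothelial-like cells, which line the pleura, had Ccn1 at 926 CPM (873 to 981) which is near its smooth muscle level, with Ccn2 at 85.0 CPM, near its endothelial level, and 0 UMIs of Ankrd1. Tgfbi was most abundant in myeloid cells, at 154 CPM (143 to 165), and reached 314 CPM in the neutrophil cluster led by S100a9 and Retnlg. In lymphoid cells Smad7 was at 95.6 CPM, and it was at 232 CPM in the cytotoxic cluster led by Ccl5 and Gzmb. Pmepa1 was at 143 CPM in ciliated-like cells (128 to 159), the highest epithelial level of that gene at day 0. Skil lay between 64.4 and 144 CPM in AT1-like, smooth muscle-like, fibroblast-like, endothelial-like, myeloid, lymphoid and mesothelial-like cells.

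Within smooth muscle-like cells the contractile genes were near universal and the matrix gene was not. Tagln was seen in 98.1% of thinned cells (96.0 to 99.3) and Acta2 in 97.2% (94.8 to 98.7), and Tagln in 313 of the 315 cells with an Acta2 UMI. Ltbp2 was seen in 21.0% (16.7 to 25.8) and Ankrd1 in 11.1% (7.90 to 15). Ccn2 was seen in 66.0% (60.6 to 71.2) and Ccn1 in 63.9% (58.4 to 69.1). Ccn1 was seen in 62.8% of smooth muscle-like cells with a Ccn2 UMI (56.1 to 69.3) and in 60.4% of those without (50.4 to 69.7), intervals that overlap.

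Immediate early genes, which rise within minutes of serum, stretch or cell dissociation and count Ccn1 among them, also differed in the comparisons of day 0. Of 13 tested, 10 were lower and 1 higher in AT1-like than in smooth muscle-like cells, beside 20.4% of all tested genes lower and 20.1% higher. Against fibroblast-like cells 10 of 14 were lower and 1 higher (19.8 and 20.5% of all). Against endothelial-like cells 6 of 13 were lower and 1 higher (22.0 and 16.3% of all), while Ccn1 and Ccn2 were higher in AT1-like cells there. Fos was at 123 CPM in AT1-like cells, against 1227 CPM in smooth muscle-like and 754 CPM in fibroblast-like cells. Egr1 was at 30.4 CPM in AT1-like cells, against 1214 CPM in smooth muscle-like and 628 CPM in fibroblast-like cells. Their part in the Ccn1 and Ccn2 levels of day 0 was not tested.

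**Figure D2:**
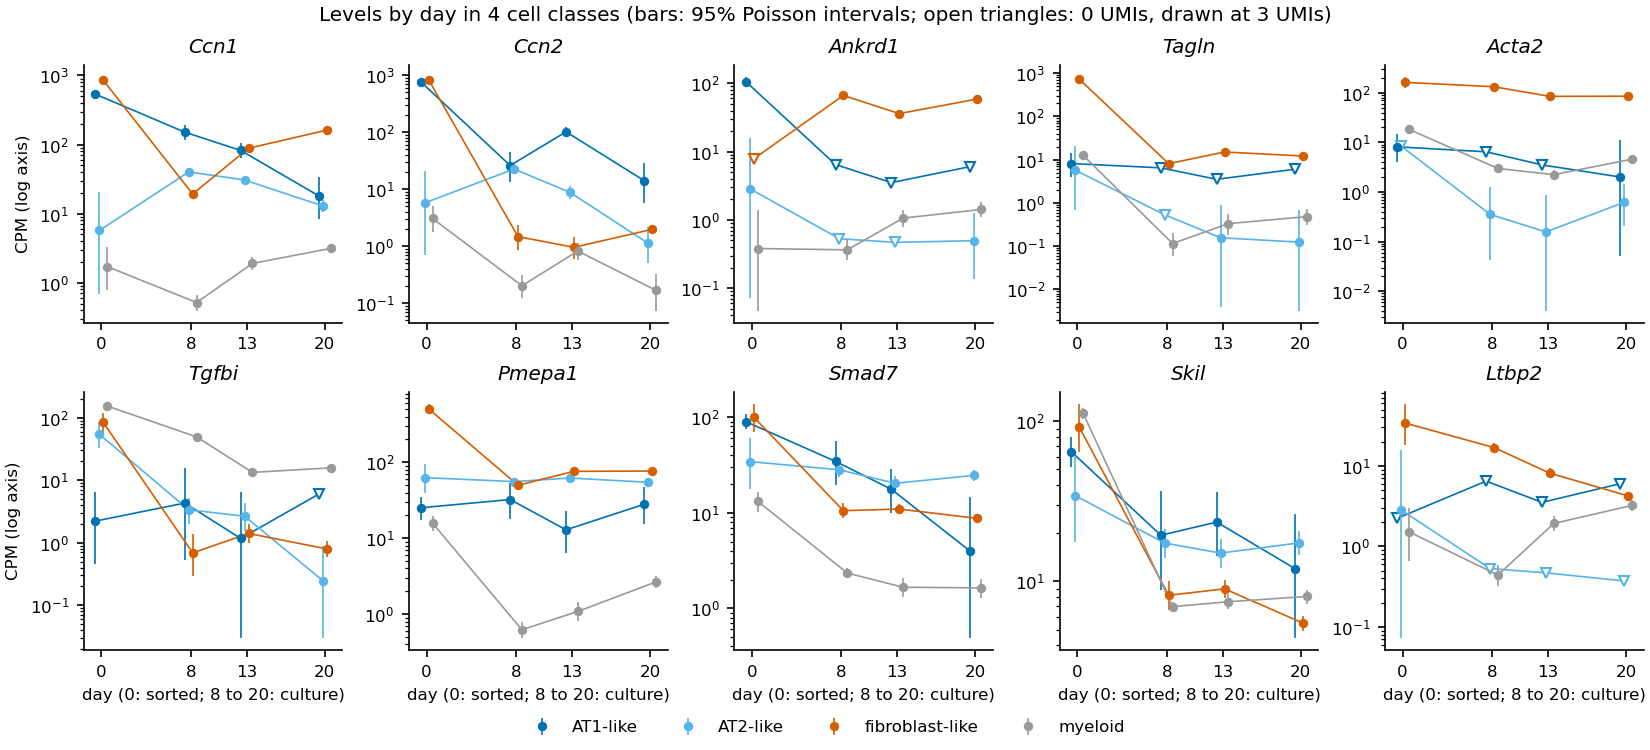
Level (CPM, log axis) of each of the 10 genes at days 0, 8, 13 and 20 in AT1-like, AT2-like, fibroblast-like and myeloid cells, with 95% Poisson intervals as bars and open triangles for 0 UMIs, drawn at 3 UMIs. In AT1-like cells Ankrd1 lies at 105 CPM at day 0 and at 0 UMIs on all 3 culture days, while in fibroblast-like cells it runs the other way.

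In the cultures, all under the receptor inhibitor, AT1-like cells had far less of the YAP/TAZ readouts than AT1-like cells of day 0. Of the 6 genes tested, 5 were lower, where 31.4% of all tested genes were lower, and 0 were higher, where 10.9% of all were. Ankrd1 had 0 UMIs in the 157 cultured cells, against 105 CPM at day 0, at least 63.6-fold lower. Ccn2 was at 57.8 CPM in the pooled cultures against 762 CPM at day 0, 13.2-fold lower (10.8 to 16.3). Ccn1 was at 82.1 CPM in the pooled cultures against 535 CPM at day 0, 6.52-fold lower (5.45 to 7.83). The cultured values differed among days: Ccn1 was at 151, 82.1 and 18 CPM at days 8, 13 and 20, and Ccn2 at 25.9, 101 and 14.0 CPM. Ccn1 was thus lower at each later day of culture while Ccn2 was highest at day 13 (80.7 to 125), and on every day both lay under their day 0 interval. AT1-like cells of day 20 were 48 cells with 499074 UMIs in all, so the values of that day rest on few UMIs.

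The SMAD feedback genes split in the same AT1-like cells. Smad7 was at 18.2 CPM in the pooled cultures against 89.6 CPM at day 0, 4.93-fold lower (3.33 to 7.48), with 34.5, 17.6 and 4.01 CPM at days 8, 13 and 20. The pooled level rests on 33 UMIs split over those days, so the value of each day rests on few. Skil was at 19.3 CPM in the pooled cultures against 64.4 CPM at day 0, 3.34-fold lower (2.23 to 5.10). Pmepa1, also a gene that TGF-beta induces, was at 22.0 CPM in the pooled cultures against 25.2 CPM at day 0, a ratio of 1.14 (0.702 to 1.85) that did not meet the rule. Tagln and Ltbp2 had 0 UMIs and Acta2 had 1 UMI in the cultured cells, with Tgfbi between 0 and 4.31 CPM, too few to compare. In the sub-cluster with little Ager, the pooled cultures had Ccn1 at 67.4 CPM, Ccn2 at 46.7 CPM, Smad7 at 28.9 CPM and Skil at 19.1 CPM, close to the AT1-like values, and Pmepa1 at 47.2 CPM. With both sub-clusters taken as AT1-like, 5 of the tested genes were again lower.

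Thinned to 2000 UMIs, the shares of cells gave the same order as the levels. Ccn1 was seen in 12.6% of 135 cultured AT1-like cells, against 49.8% of 309 at day 0. Ccn2 was seen in 11.1% of the cultured cells, against 54.7% at day 0. Ankrd1 was seen in none of the 135, against 16.2% at day 0, and a floor of 3 cells would be a share of 2.22%.

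Other genes of the pathways were counted over lists chosen with earlier results of these data known, and the counts stand beside 31.4% of all tested genes lower and 10.9% higher in this comparison. Among 10 tested TGF-beta ligand, receptor and activation genes, 7 were lower and 0 higher in cultured AT1-like cells, with a median log2 ratio of -1.70 beside -0.46 for all genes. Itgb6, the integrin subunit with which epithelium releases latent TGF-beta, was at 35.8 CPM in the cultures against 306 CPM at day 0. Fstl3, a secreted activin antagonist, was at 10.5 CPM in the cultures against 149 CPM at day 0. Acvr2b and Itgav were also lower, by 10.2-fold and 3.33-fold. Among 15 other YAP/TAZ targets 7 were lower, led by Dlc1, the ectonucleotidase Nt5e and the clotting receptor F3, and 2 were higher, Areg and Gadd45a. Nt5e was at 40.2 CPM in the cultures against 426 CPM at day 0, while the EGF-receptor ligand Areg was at 68.3 CPM in the cultures against 2.96 CPM at day 0.

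Of 14 tested components of the Hippo pathway, 5 were lower and 0 higher, near the share of all tested genes (31.4% lower), with a median log2 ratio of -0.82 beside -0.46 for all genes. They included Lats2, a kinase that restrains YAP and is itself a YAP target, 10.7-fold lower. Tead1, the DNA-binding partner, was at 130 CPM in the cultures against 773 CPM at day 0. Among 6 targets of BMP and SMAD1/5, the sister pathway that SB 431542 does not aim at, 5 were lower, with a median log2 ratio of -4.03. Id3, a BMP-induced inhibitor of differentiation, was at 17.6 CPM in the cultures against 275 CPM at day 0. Among 7 other targets of TGF-beta and SMAD2/3, 3 were lower (Itgb5, Timp3 and Tgfb1i1) and 2 were higher, fibronectin gene Fn1 and the repressor gene Bhlhe40. Genes of AT1 identity moved with them, as given above for Ager and Igfbp2, and their part in these ratios was not tested.

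AT2-like cells, the surfactant-producing cells, had little of the YAP/TAZ readouts at day 0, and 3 genes met the rule at day 8. Of the 6 genes tested at day 8 against day 0, 2 were higher (13.1% of all tested genes) and 1 was lower (21.0% of all). The higher ones were Ccn1, at 40.2 CPM against 5.71 CPM, and Ccn2, at 22.5 CPM against 5.71 CPM, and both day 0 levels rest on 2 UMIs in 78 cells, with observed ratios of 7.03 (1.92 to 58.4) and 3.93 (1.07 to 32.8). After thinning, Ccn1 had a log2 ratio of 0.89 and lost its call, and Ccn2 turned its direction, as given in the closing section. Of the 78 cells of day 0, 77 fell in a sub-cluster that held 25 of the 315 cells of day 8, whereas 190 and 71 cells of day 8 fell in 2 others, so the makeup of the class moved with the ratios. Those 71 cells, with the cell-cycle genes Ube2c and Prc1 among their leading genes, had Ccn2 at 53.5 CPM, against 5.36 CPM in the 190. Tgfbi was at 3.36 CPM at day 8 against 54.3 CPM at day 0, 16.1-fold lower (8.09 to 32.2). Pmepa1 (55.7 against 62.8 CPM), Smad7 (28.1 against 34.3 CPM) and Skil (17.3 against 34.3 CPM) did not meet the rule.

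Within the cultures the YAP/TAZ readouts of AT2-like cells were lower at the later day, and the feedback genes had no call. At day 20 against day 8, 2 of the 4 tested genes were lower (6.6% of all tested genes) and 0 were higher (3.28% of all). Ccn2 was at 22.5, 8.76 and 1.12 CPM at days 8, 13 and 20, 20.1-fold lower at day 20 than at day 8 (10.3 to 45). Ccn2 lost this call under 5 alternative settings, with a log2 ratio of -1.98 after thinning, against -4.33 here. Ccn1 was at 40.2, 30.7 and 12.9 CPM, 3.11-fold lower (2.45 to 3.96). Pmepa1 was at 55.7, 62.1 and 54.5 CPM, a ratio of 1.02 between day 20 and day 8 (0.882 to 1.18). Smad7 was at 28.1, 20.3 and 24.6 CPM, a ratio of 1.14 (0.923 to 1.42). At day 20 most cells of the class fell in 3 sub-clusters of 192, 116 and 115 cells, which held 25, 0 and 4 cells of day 8, and Smad7 was at 79.7 CPM in the 115 cells.

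Airway and ciliated cells of the cultures had more Ccn2 than AT2-like cells did at days 13 and 20. In airway secretory-like cells Ccn2 was at 63.4, 114 and 122 CPM at days 8, 13 and 20. In basal- and squamous-like cells it was at 118, 51.5 and 138 CPM, the last from 12 cells only. In ciliated-like cells Ccn2 was at 53.6 CPM at day 13 against 6.47 CPM at day 0, 8.28-fold higher (4.92 to 15). In the same ciliated-like cells Smad7 was at 13.2 CPM at day 13 against 46.6 CPM at day 0, 3.54-fold lower, and Pmepa1 at 42.6 CPM against 143 CPM, 3.36-fold lower. Of the 4 genes tested there, 1 was thus higher (13.1% of all tested genes) and 2 were lower (20.8% of all), with Ccn1 at 38.2 CPM at day 13 against 33.6 CPM at day 0. Ciliated-like cells of day 0 and of the cultures fell in different sub-clusters, and Fos was at 132 CPM at day 13 against 784 CPM at day 0.

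Over all epithelial cells the mixture of classes differed between days beside the values. At day 8 against day 0, 3 of the 6 tested genes were lower (27.1% of all tested genes) and 0 were higher (11.9% of all). Ankrd1 was at 0.291 CPM at day 8, 3 UMIs, against 30.9 CPM at day 0, a ratio of 106 (35.7 to 522). Ccn2 was at 40.2 CPM at day 8 against 222 CPM at day 0, 5.51-fold lower, and Ccn1 at 58.7 CPM against 170 CPM, 2.9-fold lower. Pmepa1, Smad7 and Skil did not meet the rule. AT1-like cells were 468 of the 1067 epithelial cells at day 0 and 39 of the 569 at day 8, so the share of AT1-like cells moved with these ratios. At day 20 against day 8, 0 of the 4 tested genes were higher (2.86% of all tested genes) and 0 lower (4.08% of all). Ccn2 was at 38.1 CPM at day 20 against 40.2 CPM at day 8 over all epithelial cells, although it was 20.1-fold lower within AT2-like cells, while airway secretory-like cells had 122 CPM at day 20 against 63.4 CPM at day 8.

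**Figure D3:**
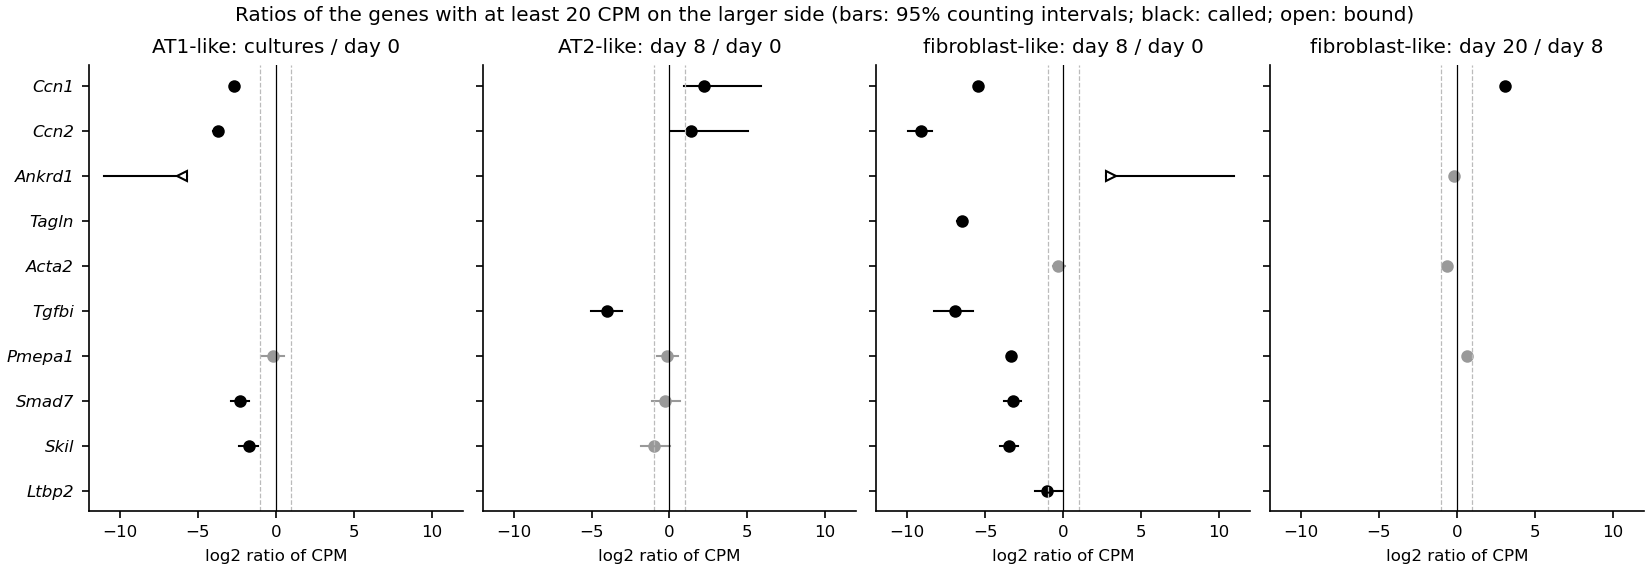
Log2 ratio of CPM (x axis) for each gene with at least 20 CPM on the larger side, in AT1-like cells of the cultures over day 0, AT2-like cells of day 8 over day 0, fibroblast-like cells of day 8 over day 0 and of day 20 over day 8. Bars are 95% counting intervals, black points met the call rule and grey ones did not, and open triangles are bounds for 0 UMIs. Fibroblast-like cells show the lowest ratio, Ccn2 at 565-fold lower. Among the ratios that are not bounds, Ccn1 and Ccn2 in AT2-like cells have the widest intervals.

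Fibroblast-like cells of day 8 differed from those of day 0 in 9 of the 10 genes, where 30.3% of all tested genes were lower and 16.1% higher. The call of Ltbp2, among the 9, did not hold in every setting, as given below. The labels say that MLg fibroblasts were added to each culture, and cultured fibroblast-like cells had almost no reporter: tdTomato was at 3.36, 4.80 and 2.09 CPM and EGFP at 1.38, 3.19 and 0.879 CPM at days 8, 13 and 20, against 104, 56.4 and 53.3 CPM of tdTomato in myeloid cells of the same libraries. Fibroblast-like cells of day 0 had tdTomato at 149.8 CPM. In the comparison across days, origin, culture and inhibitor therefore cannot be told apart.

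At day 8 against day 0, 8 of the 10 genes were lower in fibroblast-like cells (30.3% of all tested genes) and 1 was higher (16.1% of all). Ccn2 was at 1.46 CPM at day 8 against 828 CPM at day 0, 565-fold lower (347 to 983). Tgfbi was at 0.689 CPM against 84.1 CPM, 122-fold lower (55.1 to 306). Tagln was at 8.10 CPM against 728 CPM, 89.9-fold lower (70.9 to 115), and Ccn1 at 19.2 CPM against 851 CPM, 44.3-fold lower (37.3 to 52.8). The feedback genes were all lower, Skil by 11.2-fold, Pmepa1 by 10.2-fold and Smad7 by 9.50-fold. Ltbp2 was at 16.9 CPM at day 8 against 34.2 CPM at day 0, 2.02-fold lower (1.06 to 3.54), on 13 UMIs at day 0. The direction of Ltbp2 turned when cells were weighted equally, and its call was lost without the 5 cells named above.

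Ankrd1 went against that direction, and Acta2 had no call. Ankrd1 was at 66.5 CPM in fibroblast-like cells of day 8 (61.9 to 71.4), against 0 UMIs at day 0, at least 8.44-fold higher. Acta2 was at 132 CPM at day 8 against 163 CPM at day 0, a ratio of 1.23 (0.938 to 1.59) that did not meet the rule. Its day 0 level, as a share of its smooth muscle level, lay within the range of the smooth muscle genes given above, and its source was not tested. Among 13 contractile genes tested, 3 were lower and 2 higher, at or below the shares of all tested genes (30.3 and 16.1%), the higher ones being the tropomyosins Tpm2 (530 CPM at day 8 against 84.1 CPM at day 0) and Tpm1.

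Some of the pathway lists had more lower calls in cultured fibroblast-like cells than the 30.3% of all tested genes, and others did not. Of 20 TGF-beta ligand, receptor and activation genes, 18 were lower and 2 higher at day 8 against day 0, with a median log2 ratio of -2.86 beside -0.24 for all genes. Tgfbr2, the type II receptor, was at 97.8 CPM at day 8 against 473 CPM at day 0, and Tgfbr1, the type I receptor, at 7.75 CPM against 63.1 CPM. The higher ones were Fst and Inhbb, an activin antagonist and an activin subunit, with Fst at 71.4 CPM at day 8 against 15.8 CPM at day 0. Of 16 other targets of TGF-beta and SMAD2/3, 12 were lower and 1, Cdh2, was higher; the oxidase gene Nox4 was at 0.603 CPM at day 8 against 278 CPM at day 0. Of 17 other YAP/TAZ targets 8 were lower and 2 higher, and of 15 Hippo components 6 were lower and 0 higher. Of 4 targets of BMP and SMAD1/5 1 was lower, with a median log2 ratio of -0.096 that lay above the -0.24 of all genes. Of 15 immediate early genes 13 were lower, with Fos at 77.1 CPM at day 8 against 754 CPM at day 0, and their part in the Ccn1 and Ccn2 ratios was not tested.

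Within the cultures Ccn1 rose in fibroblast-like cells while Ccn2 stayed near 0. Ccn1 was at 19.2, 88.3 and 161 CPM at days 8, 13 and 20, 8.40-fold higher at day 20 than at day 8 (7.35 to 9.63). It was the 1 gene higher among the 4 tested at day 20 against day 8 (1.95% of all tested genes), and 0 were lower (0.715% of all). Ccn2 stayed at 1.46, 0.952 and 1.97 CPM over the same days. The pair that stood side by side in day 0 fibroblast-like cells, at 851 and 828 CPM, thus stood far apart in every culture. Of the other genes Acta2 was at 132, 84.8 and 85.4 CPM, Ankrd1 at 66.5, 36.1 and 59.0 CPM and Pmepa1 at 49.9, 76.0 and 76.8 CPM, with no call between day 20 and day 8. Smad7 (10.5, 10.9 and 8.72 CPM), Skil (8.18, 8.98 and 5.50 CPM), Tagln (8.10, 15.1 and 12.2 CPM) and Ltbp2 (16.9, 8.11 and 4.23 CPM) stayed too low to be tested. In the thinned cells Ccn1 was seen in 4.94, 12.7 and 21.1% of fibroblast-like cells at days 8, 13 and 20.

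**Figure D4:**
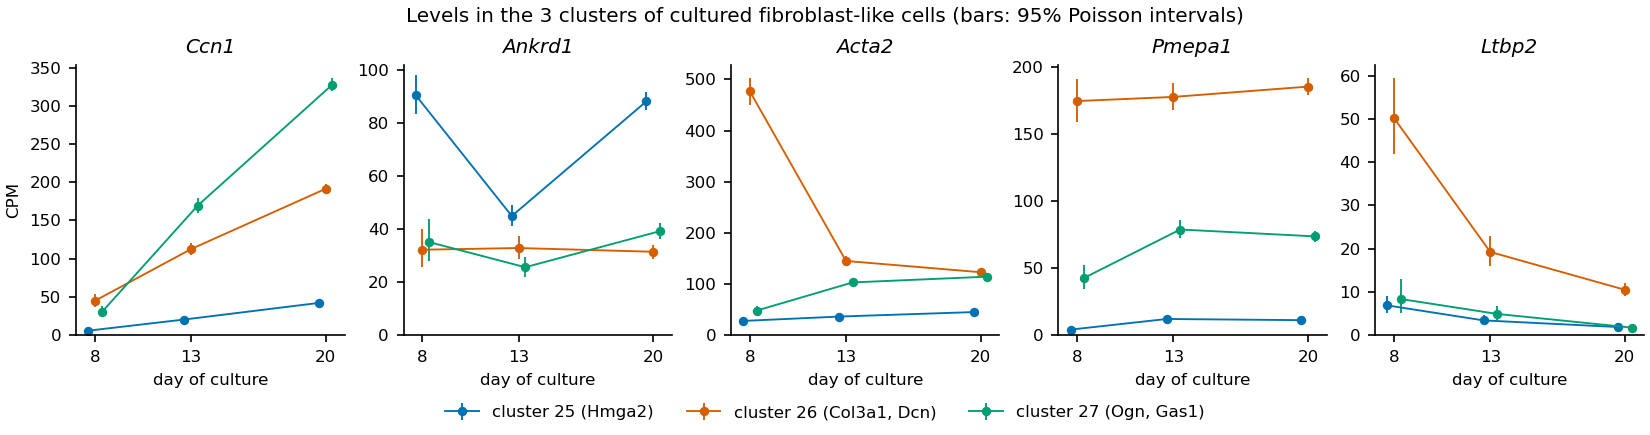
Level (CPM) of Ccn1, Ankrd1, Acta2, Pmepa1 and Ltbp2 at days 8, 13 and 20 in the 3 clusters of cultured fibroblast-like cells, with 95% Poisson intervals. Ccn1 climbs in all 3 clusters, Ankrd1 is highest in the Hmga2 cluster, and Acta2 starts at 477 CPM in the Col3a1 and Dcn cluster and ends at 123 CPM.

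The cultured fibroblast-like cells fell into 3 clusters that differed in their levels of the genes. Ccn1 was higher at each later day in each of them: 5.66, 20.3 and 42.0 CPM in the cluster led by Hmga2, 44.8, 112.5 and 191 CPM in the one led by Col3a1, Dcn and Enpp2, and 29.8, 169.5 and 328 CPM in the one led by Ogn and Gas1. Ankrd1 was highest in the Hmga2 cluster, at 90.5, 44.9 and 88.2 CPM, against 32.2, 32.8 and 31.4 CPM in the Col3a1 and Dcn cluster. Acta2 was at 477, 145 and 123 CPM in the Col3a1 and Dcn cluster, against 27.5, 36.1 and 44.8 CPM in the Hmga2 cluster. Pmepa1 was at 174, 177 and 185 CPM in the Col3a1 and Dcn cluster and at 4.02, 11.9 and 11.1 CPM in the Hmga2 cluster. So Ankrd1 and the SMAD-linked genes Acta2 and Pmepa1 were highest in different fibroblast clusters of the same libraries. Ccn1, like Ankrd1 a TEAD readout, was lowest in the Hmga2 cluster on each day, so these readouts did not go together. At day 20 Ccn1 was seen in 28.5% of thinned cells with an Acta2 UMI (23.5 to 34.0) and in 19.7% of those without (18.1 to 21.3), and Pmepa1 in 24.3% (19.5 to 29.7) and 15% (13.6 to 16.5). Ankrd1 was seen in 8.03% of cells with a Ccn1 UMI (5.96 to 10.5) and in 8.14% of those without (7.01 to 9.39).

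Within the same libraries, fibroblast-like and epithelial cells carried different members of the gene group. At day 8, 2 of 6 tested genes were higher in fibroblast-like cells (16.7% of all tested genes) and 3 lower (17.8% of all). At day 13 the counts were 3 higher (14.5% of all) and 1 lower (19.2% of all) of 5, and at day 20 they were 3 higher (23.5% of all) and 2 lower (19.1% of all) of 6. Acta2 was 342-, 202- and 112-fold higher in fibroblast-like than in epithelial cells at days 8, 13 and 20, and Ankrd1 229-, 172- and 94.9-fold higher. Ccn2 was lower in fibroblast-like cells on all 3 days, at 1.46, 0.952 and 1.97 CPM, against 40.2, 56.1 and 38.1 CPM in epithelial cells. Ccn1 changed sides: it was 3.06-fold lower in fibroblast-like cells at day 8, had no call at day 13 and was 5.37-fold higher at day 20. Smad7 was 2.67- and 3.28-fold lower in fibroblast-like cells at days 8 and 20, and Pmepa1 2.39-fold higher at day 13.

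Low epithelial values have to be read beside free fibroblast RNA. The collagen genes Col1a1, Col1a2 and Col3a1 reached 0.18 to 0.29% of their fibroblast level in epithelial cells at day 8, 0.96 to 1.36% at day 13 and 1.19 to 1.63% at day 20. Acta2 reached 0.29, 0.49 and 0.89% and Ankrd1 0.44, 0.58 and 1.05% on those days, so the epithelial UMIs of both were at or near that background. The 16 fibroblast markers summed to 95, 148 and 258 CPM in epithelial cells, against 5337, 6083 and 7008 CPM in fibroblast-like cells. Fibroblast-like cells held less Ccn2 than epithelial cells did on all 3 days.

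In macrophages and other myeloid cells as a whole class, Tgfbi and Skil were the 2 of the 10 genes that reached 20 CPM. At day 8 against day 0 both tested genes were lower (20.2% of all tested genes) and 0 were higher (10.9% of all). Tgfbi was at 49.3 CPM at day 8 against 154 CPM at day 0, 3.12-fold lower (2.89 to 3.36), and Skil at 6.95 CPM against 112 CPM, 16.1-fold lower (14.4 to 18). At day 20 against day 8 the 1 tested gene, Tgfbi, was lower (5.83% of all tested genes, with 5.90% higher), at 15.8 CPM against 49.3 CPM, 3.13-fold lower (2.9 to 3.38). Day 0 myeloid cells were neutrophils, alveolar macrophages and monocytes, while the cultures held macrophage clusters of their own, so the makeup of the class moved with the ratio. Acta2, Pmepa1 and Smad7 were at 18.5, 15.8 and 13.2 CPM in myeloid cells of day 0, under that limit, and without a minimum CPM more genes were called, as given in the closing section.

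Across 28 class-and-library levels, the genes whose pattern was most like each of the 10 were found among 11802 genes by the Pearson correlation of log2 levels, a description over points that share libraries. Tagln was closest to Aspn (0.94), Des (0.94) and Mustn1 (0.93), and Acta2 to Myl9 (0.95), Pdgfrb (0.93) and Tbx5 (0.93), genes of muscle and perivascular cells. Ltbp2 also led with Myl9 (0.92). Ccn1 was closest to Wasl (0.93), Ccn2 to Syn3 (0.91) and Timp3 (0.88), and Ankrd1 to Daam2 (0.87), so the 3 YAP/TAZ readouts did not share a nearest gene. Pmepa1 was closest to Thbs1 (0.87), whose product activates latent TGF-beta, Smad7 to Hdac7 (0.92), Skil to 8030462N17Rik (0.88) and Tgfbi to Xylt1 (0.88).

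In the mm10 annotation Ccn1 spans 145646976 to 145649981 on the minus strand of chromosome 3 and Skil 31095058 to 31122577 on its plus strand. Ankrd1 (36111961 to 36120099) and Acta2 (34241090 to 34255590) lie on the minus strand of chromosome 19, and both Ankrd1 stretches printed above lie inside the span that this annotation gives the gene, upstream of the start that RefSeq gives. Ccn2 lies on chromosome 10, Ltbp2 on 12, Tgfbi on 13, Pmepa1 on 2, Smad7 on 18 and Tagln on 9.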

How the data were processed

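Droplet libraries of GFP-positive lung cells at day 0 and of their organoid cultures at days 8, 13 and 20, 1 library each, were used. The deposited matrices hold raw UMI counts. The submitters' processing notes name Cell Ranger 7.0.1 and mm10, and whether free RNA or doublets were removed is not given in the sources used here. The labelled molecule is nuclear RNA, although the protocol describes single-cell suspensions.

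Barcodes with at least 500 genes and at most 15% mitochondrial UMIs were kept. Scrublet's own limit called 0, 255, 0 and 0 doublets, so the highest scores were removed at 0.8% per 1000 barcodes. Cells were clustered in Scanpy 1.11.5 (2000 variable genes without the 10 genes and the lists, 30 components, 15 neighbours, Leiden resolution 1.0), and epithelial cells again on their own. Clusters took the name of the best of the marker lists, so classes may differ from the authors' own. Of the 14 lists, those for cycling cells and general epithelium were not used for names. UMIs were summed per class and library and scaled to CPM. Class totals ran from 243485 to 104248116 UMIs, and precision follows from them. Levels and ratios carry exact Poisson intervals, and shares of cells, thinned to 2000 UMIs, Clopper-Pearson intervals, all 95% and for counting error only (SciPy 1.17.1). A side with under 3 UMIs was set to 3. The calls were tested on simulated counts. Alternatives changed cell filters, doublets, clustering, scaling, thinning and call limits.

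All 10 genes are named; from each of the 8 pathway lists up to 4 called genes with the largest ratios are, and list genes given otherwise were chosen after their values were seen; a gene of the lists is not reported here. The genes and lists were chosen with earlier results of these data known.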

Additional observations from a re-analysis of the deposited data

How the results depend on the processing

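Over the 16 comparisons and 19 alternative settings, 264 of 303 counts of called genes were within 1.5 times of the reported count and 39 were not. Of 1135 ratios of called genes 1027 stayed within their counting interval, 105 moved and 3 turned round. Settings that change only the call limits leave every ratio as it is by construction, and some others reach only part of the comparisons. The share of ratios that stayed is therefore no measure of stability. Counts stayed within 1.5 times of the reported ones in the comparisons of AT1-like cells at day 0, in AT1-like cells of the cultures, in fibroblast-like cells of day 8 against day 0 or in fibroblast-like against epithelial cells of day 13. With no minimum CPM the counts were 6 for ciliated-like cells, 7 for epithelial cells of day 8 against day 0 and 1 for day 20 against day 8, 2 for fibroblast-like cells of day 20 against day 8, 9 and 8 for fibroblast-like against epithelial cells of days 8 and 20, and 9 and 6 for myeloid cells of day 8 against day 0 and of day 20 against day 8. With a minimum of 5 CPM they were 5 for ciliated-like cells, 5 for epithelial cells of day 8, 2 for fibroblast-like cells of day 20, 8 for fibroblast-like against epithelial cells of day 8 and 6 for myeloid cells of day 8. These limits by construction admit genes of lower level. At 1.5-fold the counts were 6 and 1 for epithelial cells of days 8 and 20 and 3 for fibroblast-like cells of day 20. With doublets kept they were 5 for ciliated-like cells, 7 and 1 for epithelial cells of days 8 and 20 and 6 for myeloid cells of day 8. Too few cultured cells were called AT1-like in that setting, so the comparison of cultured AT1-like cells had no value. Without a cell filter they were 7 for epithelial and 4 for myeloid cells of day 8 and 1 for AT2-like cells of day 20. With the stricter filter they were 5 for AT2-like and 4 for myeloid cells of day 8. Myeloid cells of day 8 had 4 calls at Leiden resolution 2.0, with each library clustered alone, without the 50 most abundant genes and by the mean of per-cell CPM. AT2-like cells of day 20 had 1 call at resolution 0.5, with each library alone, by the mean per cell and after thinning, and those of day 8 had 1 after thinning. Epithelial cells of day 20 had 1 call by the mean per cell and after thinning, and fibroblast-like cells of day 20 had 2 without the 50 most abundant genes, 3 by the mean per cell and 3 after thinning. The ratios that turned round were Ccn2 in AT2-like cells of day 8 against day 0, with a log2 ratio of -0.64 at resolution 0.5 and -0.998 after thinning, and Ltbp2 in fibroblast-like cells of day 8 against day 0, with 1.18 by the mean per cell. Doublets kept also moved Tgfbi in fibroblast-like cells of day 8 against day 0 to -4.08, and thinning moved Ankrd1 to bounds of -3.17 in cultured AT1-like cells and 1.59 in fibroblast-like cells of day 8. For these changes the cause was not tested. The 4 settings added after the data were seen moved no count beyond 1.5 times, and some of them reach only a few of the comparisons. Ltbp2 lost its calls in the comparisons with day 0 fibroblast-like cells when the 5 cells of a culture cluster were left out. No paired analysis was possible because each group is 1 library. Depth limits the day 0 values of AT2-like cells (350054 UMIs in all) and fibroblast-like cells (380622 UMIs), where 3 UMIs are 8.57 and 7.88 CPM.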

Other observations

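A sub-cluster of 115 AT2-like cells of day 20 had Thbs1 and Fn1 among its leading genes. It had more Smad7 than the other AT2-like sub-clusters of that day with at least 50 cells. Thbs1, which activates latent TGF-beta, was at 847 CPM there and the matrix gene Fn1 at 744 CPM. Its own leading genes are a description and no result. Smad7 was at 79.7 CPM and Skil at 41.9 CPM in the same cells, with Pmepa1 at 51.8 CPM, Ccn1 at 8.22 CPM and Ccn2 at 0.822 CPM. Over all AT2-like cells of day 20 Skil was at 17.4 CPM and Pmepa1 at 54.5 CPM, so Pmepa1 was not raised in the sub-cluster. Smad7, at 24.6 CPM over all AT2-like cells of day 20, was at 11.7 to 16.2 CPM in the other AT2-like sub-clusters of that day with at least 50 cells. The sub-cluster was singled out after its values were seen.

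Ltbp2, low in myeloid cells as a whole, was at 17.3 CPM at day 13 and 40.3 CPM at day 20 in the macrophage cluster led by Saa3 and Mmp12.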
